A study of Mus musculus with 10 samples.

Results

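Collagen chain genes are the mouse genes whose symbol is Col, a type number, the letter a and a chain number (Col1a1, Col4a2). All rows of the deposited tables with such a symbol were taken, which gave 44 chains among 24358 gene symbols. RNA sequencing counts were available for 10 full-thickness biopsies of back skin from 5 C57Bl/6 mice with an interleukin-17C (IL-17C) transgene, a model with psoriasis-like lesions. Each mouse gave 1 lesional and 1 uninvolved biopsy, and the libraries held 21056850 to 31072491 counts. The genotype label was IL-17C+ for 3 mice (2275, 2296 and 2237) and IL-17C+KO for 2 mice (2465 and 2392), in which interleukin-6 (Il6) is knocked out according to the series' title. The mice were taken at 10 or 14 weeks, and the sources used here tell neither which mouse had which age nor which promoter drives the transgene. No mouse without the transgene was analysed here. Within a genotype label, values are given in the mouse order above.

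Reads of Il6 were present under both labels, and in each skin type IL-17C+KO had more of them. Libraries with this label held 55 and 71 Il6 counts in uninvolved skin and 300 and 315 in lesional skin. The IL-17C+ libraries held 4, 6 and 9 in uninvolved and 18, 69 and 26 in lesional skin. A count summed over a gene does not show which part of it was read, so the knockout itself was not tested. The groups are therefore called by their labels throughout. The transgene Il17c was read in all 10 libraries, at 534 to 15171 CPM (counts relative to the TMM-scaled library size). It had 1416, 5395 and 15171 CPM in uninvolved and 10852, 12467 and 10593 CPM in lesional IL-17C+ skin. Under the label IL-17C+KO it had 534 and 1900 CPM in uninvolved skin, and 10878 CPM in lesional mouse 2465. The part of the transgene level in the collagen differences was not tested.

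Collagens are trimers whose chains wind into a triple helix, which needs a glycine at regular steps along each chain. Fibrillar collagens (types I, III and V in skin) form the fibrils of the dermis, FACIT collagens sit on fibril surfaces, and type VI forms beaded filaments around cells. Type IV chains build the sheet of basement membranes, type VII anchors the epidermal basement membrane to the dermis, and type XVII is a transmembrane protein of basal keratinocytes. Fibroblasts make most of the fibrillar collagen of skin, and keratinocytes make types VII and XVII.

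The classes also differ in their coding sequences. In the coding sequences of GENCODE M21 (assembly GRCm38, which is mm10), a glycine codon (GGN) followed by a pair of any codons was counted as 1 triplet. The longest run without a break was 338 triplets in Col1a1, 339 in Col1a2 and 344 in Col3a1. It was 216 in Col24a1 and 217 in Col27a1, and only 39 in Col4a3, 40 in Col4a1 and 66 in Col4a2, and type IV chains instead had 13 to 18 separate runs of at least 10 triplets. The stretches below show this difference, with every glycine codon in capitals, whether or not it keeps the repeat. The Col1a1 stretch (codons 168 to 185) opens its longest run. In the Col4a1 stretch (codons 154 to 171), the repeat breaks after the third glycine codon.
Col1a1: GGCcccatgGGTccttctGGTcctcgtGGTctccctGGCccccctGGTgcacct
Col4a1: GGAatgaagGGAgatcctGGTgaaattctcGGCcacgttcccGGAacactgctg

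Collagen chains took a larger share of the counts in lesional than in uninvolved skin of every mouse. In uninvolved skin the 44 chains made up 0.347, 0.407 and 0.379% of all counts in IL-17C+ mice and 0.460 and 0.387% in mice labelled IL-17C+KO. In lesional skin the shares were 1.72, 0.792 and 0.793% in IL-17C+ mice and 3.63 and 1.10% in the others. All 5 lesional libraries lay above all 5 uninvolved libraries, and mice 2465 and 2275 had the highest lesional shares. The group means were 0.377 ± 0.0301% (SD, n = 3) and 1.10 ± 0.536% for uninvolved and lesional IL-17C+ skin, and 0.423 ± 0.0515% (SD, n = 2) and 2.37 ± 1.79% for the libraries labelled IL-17C+KO. In bulk tissue, more cells that make collagen and more collagen RNA per cell cannot be told apart.

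The mixture of classes differed as well. Fibrillar chains were 59.0 ± 14.8% of the collagen counts in uninvolved and 73.0 ± 5.06% in lesional IL-17C+ skin (SD, n = 3). In the mice labelled IL-17C+KO they were 47.6 ± 3.27% and 73.8 ± 7.69% (SD, n = 2). Chains of the epidermal junction and transmembrane class went from 18.9 ± 13.1% to 5.81 ± 2.19% and from 21.1 ± 3.09% to 3.60 ± 1.22%. These are shares of a collagen total that was itself larger in the lesions. Col17a1 held most counts of this class except in lesional mouse 2465 (8915 of 21398, with 10157 for Col7a1). Mouse 2237 was the exception in uninvolved skin, with 74.3% fibrillar and 4.84% junction and transmembrane chains, and its fibrillar share was lower in the lesion (67.4%). Type VI chains kept a narrow share, 5.55 to 8.88% of the collagen counts over all 10 libraries. The plot of collagen shares shows each class by mouse.

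**Figure D1:**
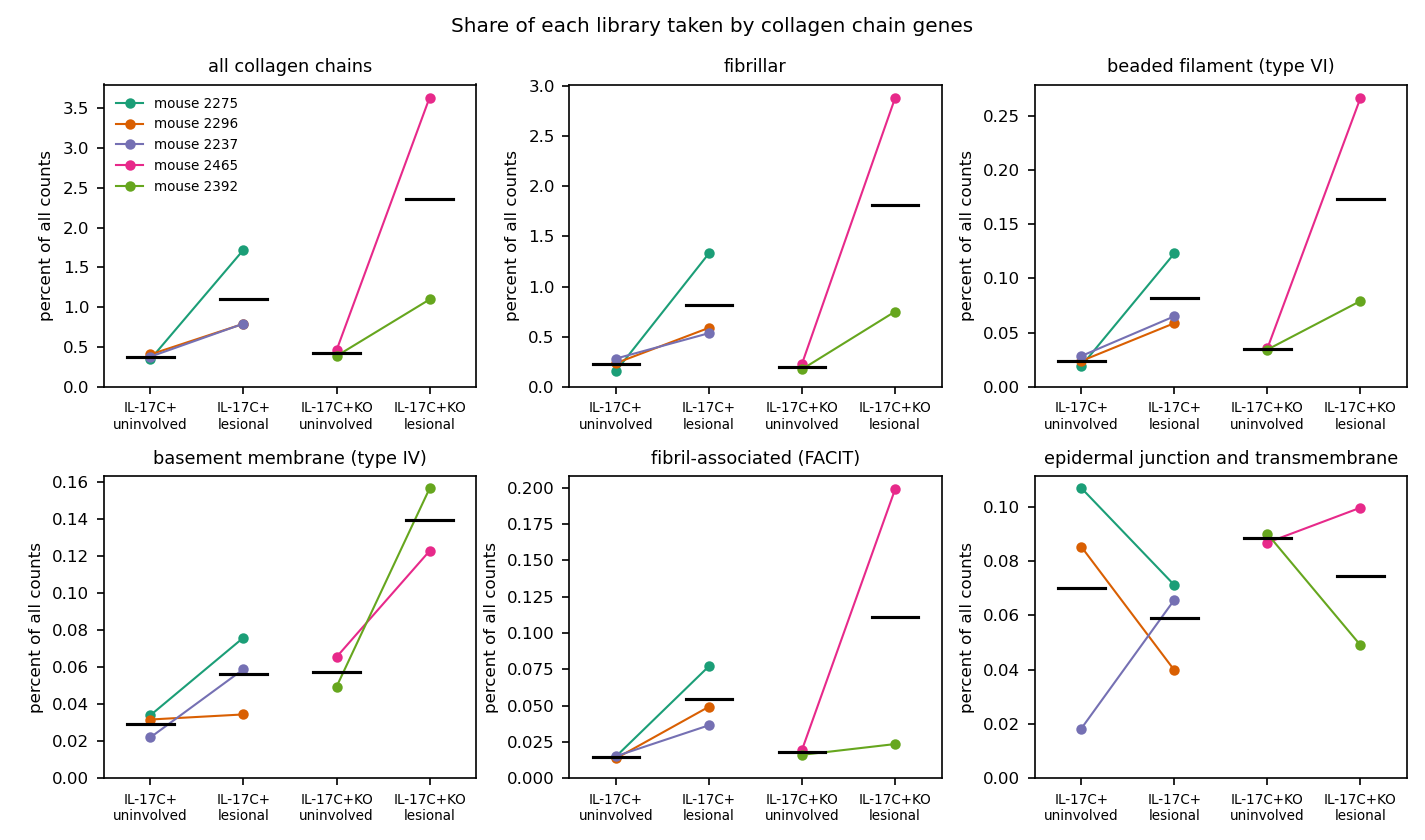
Percent of all counts of a library taken by collagen chains, for the whole family and for 5 of its classes (linear y axes that start at 0). Points are libraries, lines join the biopsies of a mouse and black bars are group means (3 or 2 libraries). The whole family and the fibrillar class are higher in the lesional library of every mouse, whereas the epidermal junction and transmembrane class is lower in 3 of 5 mice.

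Per transcript length (FPKM, the deposited length-scaled level), the most abundant chains of uninvolved skin were those of types I, III and XVII. Mean levels in uninvolved IL-17C+ skin were 174 ± 84.1 FPKM for Col3a1, 123 ± 30.5 for Col1a2, 101 ± 66.2 for Col17a1 and 68.3 ± 20.3 for Col1a1 (SD, n = 3), and these spreads overlap. In uninvolved skin under the label IL-17C+KO, Col17a1 (124 ± 5.87 FPKM), Col3a1 (116 ± 16.8) and Col1a2 (109 ± 22.8) stood close together (SD, n = 2). In lesional IL-17C+ skin the same chains were at 640 ± 293 FPKM (Col3a1), 379 ± 220 (Col1a2) and 67.8 ± 22.7 (Col17a1).

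Lesional skin was compared with uninvolved skin within mice by edgeR's quasi-likelihood test, with the mouse as a block and p-values adjusted over 16083 genes by the Benjamini-Hochberg method. Of the 44 chains, 42 passed the filter on low counts. Col9a1 (0 to 4 counts per library) and Col10a1 (0 to 7) did not. No chain reached an adjusted p under 0.05, a threshold that only 8 genes passed (0.0497% of those tested). The smallest adjusted p among the chains was 0.066, for Col5a3, Col5a1 and Col5a2. At an unadjusted p under 0.05, 24 chains were higher in lesional skin, where 10.1% of all genes were, and 2 were lower (Col8a2 and Col22a1), where 11.5% were. The fitted log2 difference was above 0 for 32 of 42 chains (49.4% of all genes), with a median of 1.03 over the chains and -0.01 over all genes. Counted by mouse, 19 chains were higher in the lesion of all 5 mice, against 9.12% of all genes, and Col8a2 was lower in all 5, against 9.75%.

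DESeq2 called more chains on the same counts. At its adjusted p under 0.05 it called 24 chains over the 5 mice (22 higher and 2 lower), where 12.7% of all genes were called. Without the block for mice, edgeR called 16 chains (5.54% of all genes), and without mouse 2237 it called 14 with the block (7.84% of all genes). The plot of lesional differences by mouse shows how much the 5 mice spread for each chain.

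**Figure D2:**
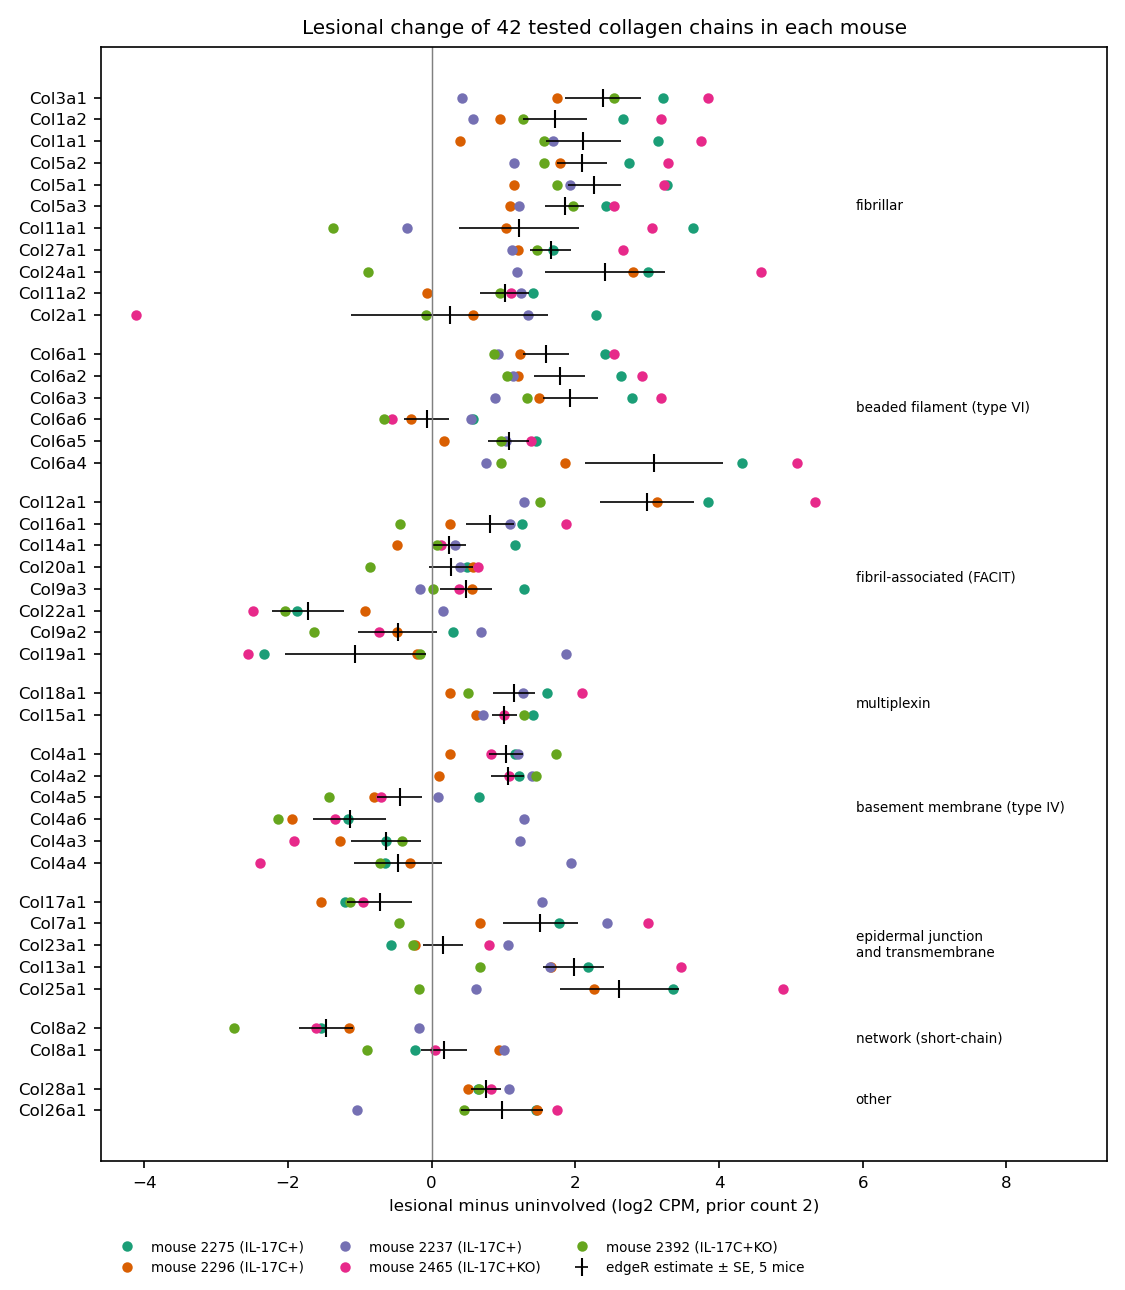
Lesional minus uninvolved difference of log2 CPM (prior count 2) for the 42 tested chains, ordered by class and, within a class, by mean FPKM. Coloured points are the 5 mice, and the black mark is the edgeR estimate with a standard error derived from its F statistic. Fibrillar and type VI chains lie mostly to the right of 0, and the type IV class splits, with Col4a1 and Col4a2 to the right of 0 and the other 4 chains estimated below it.

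All 11 fibrillar chains had a positive estimate (49.4% of all genes), with a median of 1.85. Of them, 9 had an unadjusted p under 0.05, where 10.1% of all genes were higher. By mouse, 7 of the 11 were higher in all 5 lesions, against 9.12% of all genes. Col3a1, the chain of the type III homotrimer, had 590, 1049 and 1686 CPM in uninvolved and 5474, 3529 and 2257 CPM in lesional IL-17C+ skin, and 828 and 693 against 11878 and 4041 CPM in the mice labelled IL-17C+KO. Col1a1, a chain of the type I trimer, had 300, 486 and 306 against 2669, 638 and 984 CPM, and 498 and 393 against 6718 and 1166 CPM. Col1a2, its partner, had 523, 754 and 892 against 3308, 1462 and 1330 CPM, and 750 and 574 against 6823 and 1381 CPM. For each of these chains the lowest lesional library lay above the highest uninvolved one, and mouse 2465 was the highest. The share of all genes without overlap between the skin types was not counted. Such statements, here and below, therefore only describe the values. The log2 difference was 2.38 ± 0.53 for Col3a1 (SE derived from the edgeR F statistic, adjusted p = 0.094). For Col1a1 it was 2.11 ± 0.52 (edgeR adjusted p = 0.108) and for Col1a2 1.72 ± 0.44 (adjusted p = 0.116).

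Type V collagen is a minor partner of type I that sets the width of fibrils, and its 3 chains had the smallest p-values of the family. Col5a2 had 59.7, 76.7 and 79.7 CPM in uninvolved and 399, 263 and 177 CPM in lesional IL-17C+ skin, and 107 and 91.5 against 1040 and 270 CPM under the other label. Col5a1 had 42.3, 55.0 and 39.5 against 409, 121 and 151 CPM, and 87.9 and 66.3 against 825 and 223 CPM. Neither chain overlapped between uninvolved and lesional libraries. Col5a3 had 16.2, 17.8 and 33.5 against 87.5, 37.9 and 77.7 CPM, and 37.4 and 40.5 against 218 and 159 CPM, so that lesional mouse 2296 lay inside the uninvolved range of the IL-17C+KO label. The log2 differences were 1.85 ± 0.27 for Col5a3 (unadjusted p = 0.000202), 2.26 ± 0.37 for Col5a1 (0.0004) and 2.10 ± 0.35 for Col5a2 (0.000438), each with an edgeR adjusted p of 0.066.

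The other fibrillar chains are scarce in skin. Col27a1 ranged from 1.87 to 3.34 CPM in uninvolved and from 4.39 to 21.6 CPM in lesional libraries, without overlap, with a log2 difference of 1.66 ± 0.29 (edgeR adjusted p = 0.068). Col24a1 had 0.247 to 0.626 CPM in uninvolved skin and 0.302 (mouse 2392) to 12.9 CPM (mouse 2465) in lesional skin. Col11a1 and Col11a2, whose products belong to cartilage fibrils, and Col2a1, the chain of the main cartilage collagen, overlapped between the skin types. Col2a1 had at most 34 counts in a library. Sums of 5 cartilage marker genes were 19.9 to 44.6 CPM in uninvolved and 20.1 to 73.9 CPM in lesional libraries, and their part in these chains was not tested.

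**Figure D3:**
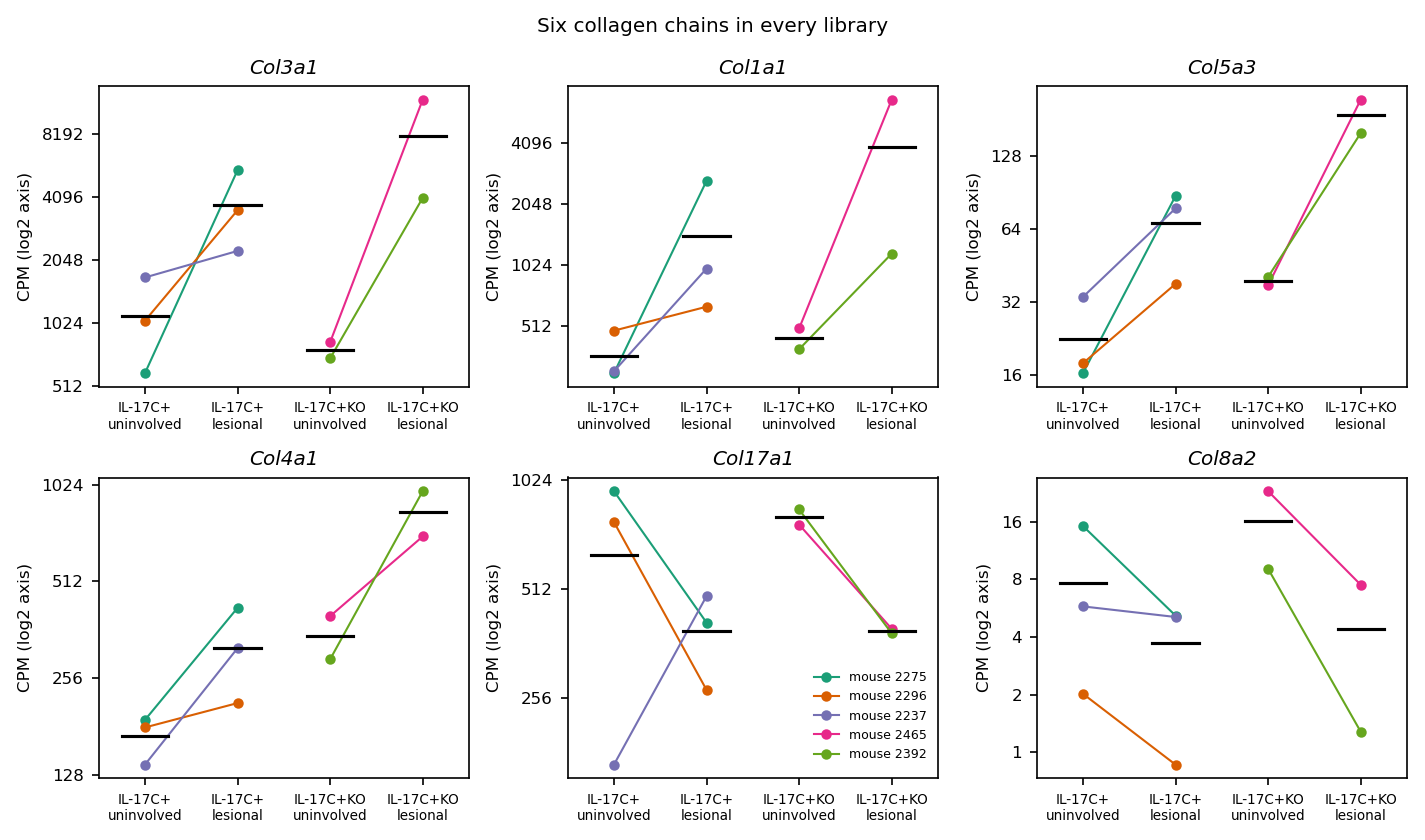
CPM of 6 chains in each library on log2 axes that do not start at 0; points are libraries, lines join the biopsies of a mouse and black bars are group means. Col3a1, Col1a1, Col5a3 and Col4a1 are higher in the lesion of all 5 mice, Col8a2 is lower in all 5, and Col17a1 is lower in 4 mice and higher in mouse 2237.

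Promoter sequence was searched for members of all classes, whatever their direction. RefSeq promoters (GRCm38.p6) were found for 35 of the 44 members, 38 promoters in all, and the 250 bases before each start site were searched on both strands. The GC box, spelled GGGCGG, was in 22 of the 38 member promoters, against 32.7% of all 32851 promoters in the table. The CCAAT box, searched by the letters of its name, was in 13 of them, against 33.8% of all. The TATA box, spelled TATAAA, was in 5 of them, against 12.4% of all. These are matches of letters, not sites shown to be used. The last 120 bases before the start sites of Col5a3 (chr9:20815068-20815187, minus strand), Col5a1 (chr2:27886305-27886424, plus strand) and Col3a1 (chr1:45311418-45311537, plus strand) are printed from RefSeq because these chains were higher in the lesion of all 5 mice. Capitals mark the GC box on either strand and the TATA box.
Col5a3: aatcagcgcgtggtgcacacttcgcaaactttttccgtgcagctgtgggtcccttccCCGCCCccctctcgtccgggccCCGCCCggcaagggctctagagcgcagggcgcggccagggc
Col5a1: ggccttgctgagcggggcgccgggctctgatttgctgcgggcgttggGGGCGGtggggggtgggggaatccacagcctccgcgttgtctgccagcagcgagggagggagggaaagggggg
Col3a1: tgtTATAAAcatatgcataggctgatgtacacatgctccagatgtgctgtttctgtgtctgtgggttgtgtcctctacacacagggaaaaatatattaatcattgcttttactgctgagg

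Type VI estimates also lay mostly above 0, from -0.07 (Col6a6) to 3.1 (Col6a4), with a class median of 1.69. Of the 6 members, 5 were higher in all 5 mice, against 9.12% of all genes. The same 5 had an unadjusted p under 0.05, where 10.1% of all genes were higher. Col6a1, Col6a2 and Col6a3 encode the chains of the common type VI trimer. Col6a1 had 74.1, 94.7 and 108 CPM in uninvolved and 396, 222 and 206 CPM in lesional IL-17C+ skin, and 157 and 144 against 914 and 262 CPM in the mice labelled IL-17C+KO. Col6a2 had 63.2, 86.3 and 92.5 against 394, 199 and 203 CPM, and 113 and 117 against 858 and 242 CPM. Col6a3 had 49.9, 64.4 and 105 against 346, 182 and 194 CPM, and 84.1 and 102 against 769 and 257 CPM. In all 3 chains the uninvolved and lesional libraries did not overlap. The log2 differences were 1.93 ± 0.38 for Col6a3 and 1.78 ± 0.35 for Col6a2 (edgeR adjusted p = 0.080 for both) and 1.59 ± 0.32 for Col6a1 (adjusted p = 0.083). The alternative chains were scarce. Col6a4 had 0 to 7 counts in uninvolved and 9 to 59 counts in lesional libraries, Col6a5 had 16 to 39 and 23 to 90, and Col6a6 had a log2 difference of -0.07.

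Type IV collagen did not follow a single direction. Col4a1 and Col4a2, which form the type IV trimer found in nearly all basement membranes, blood vessels included, had positive estimates, and the 4 chains of the tissue-restricted trimers had negative ones (class median -0.46). Col4a1 had 190, 180 and 138 CPM in uninvolved and 424, 214 and 317 CPM in lesional IL-17C+ skin, and 399 and 293 against 707 and 977 CPM under the other label. Col4a2 had 104, 118 and 73.0 against 244, 126 and 192 CPM, and 210 and 189 against 444 and 519 CPM. Within each label the skin types did not overlap, although mouse 2296 moved little. The log2 differences were 1.06 ± 0.23 for Col4a2 (edgeR adjusted p = 0.094) and 1.04 ± 0.24 for Col4a1 (adjusted p = 0.10).

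Col4a5 and Col4a6 are paired in the basement membrane under the epidermis. Col4a6 had 21.4, 9.12 and 4.41 CPM in uninvolved and 9.52, 2.31 and 10.8 CPM in lesional IL-17C+ skin, and 17.4 and 15.9 against 6.78 and 3.54 CPM. It was lower in the lesion of 4 mice and higher in mouse 2237 (log2 difference -1.14 ± 0.51, edgeR adjusted p = 0.252). Col4a5 had 17.3, 20.3 and 23.6 against 27.4, 11.5 and 25 CPM, and 27.9 and 23.4 against 17.2 and 8.63 CPM, with overlapping skin types (-0.44 ± 0.31, adjusted p = 0.456). Col4a3 and Col4a4, known from the kidney filter, had 15 to 107 counts per library. They overlapped between the skin types in IL-17C+ mice, and under the label IL-17C+KO both lesional libraries lay below both uninvolved ones.

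The type IV genes lie in head-to-head pairs, each pair read outward from a shared upstream region. In GENCODE M21 the start of Col4a1 (minus strand, chr8, 11312826) and that of Col4a2 (plus strand, 11312805) overlap by 22 bases. The starts of Col4a4 (minus strand, chr1, 82586849) and Col4a3 (plus strand, 82586921) have 71 bases between them, and those of Col4a6 (minus strand, chrX, 141474076) and Col4a5 (plus strand, 141475385) have 1308. The stretch between Col4a4 and Col4a3 (chr1:82586850-82586920, plus strand) is printed whole. For the wider pair, the 120 bases before Col4a6 (chrX:141474077-141474196, minus strand) and before Col4a5 (chrX:141475265-141475384, plus strand) are printed, since these partners differed in direction or size in several mice. All are from RefSeq's assembly GRCm38.p6, and capitals mark a GC box as above.
Col4a4 to Col4a3: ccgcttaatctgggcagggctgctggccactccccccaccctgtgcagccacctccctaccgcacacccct
Col4a6: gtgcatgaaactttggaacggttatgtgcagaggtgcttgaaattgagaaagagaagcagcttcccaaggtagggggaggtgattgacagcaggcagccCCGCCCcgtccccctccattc
Col4a5: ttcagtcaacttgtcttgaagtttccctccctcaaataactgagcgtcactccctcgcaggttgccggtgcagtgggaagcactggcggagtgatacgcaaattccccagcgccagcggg

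Partner chains were compared within libraries as log2 ratios of counts, which do not depend on the scaling of a library. The Col4a1 to Col4a2 ratio lay between 0.61 and 0.92 in all 10 libraries, a range of 0.31, while the CPM of either chain spanned 2.83 on the log2 scale. Likewise, Col6a1 to Col6a2 ranged over 0.47 and Col6a3 to Col6a1 over 0.87, against 3.62 to 3.94 for the chains themselves. These pairs varied together from library to library.

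Fibrillar partners were looser. The Col5a1 to Col5a2 ratio ranged over 1.15 and Col1a1 to Col1a2 over 1.52, from -1.54 in uninvolved mouse 2237 to -0.02 in lesional mouse 2465. The ratio of Col1a1 to Col1a2 was higher in the lesion of 4 of 5 mice, the exception being mouse 2296 (-0.63 uninvolved, -1.20 lesional). Col4a3 to Col4a4 ranged over 1.46 and Col4a5 to Col4a6 over 2.72, the latter from -0.30 (uninvolved mouse 2275) to 2.42 (uninvolved mouse 2237).

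The widest spread among pairs with at least 20 counts for each chain was that of type VIII. Col8a1 and Col8a2 encode short-chain collagens that build hexagonal networks, for example under endothelium. Their ratio ranged over 3.86 and was higher in the lesional library of all 5 mice, by 1.20 to 2.18.

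**Figure D4:**
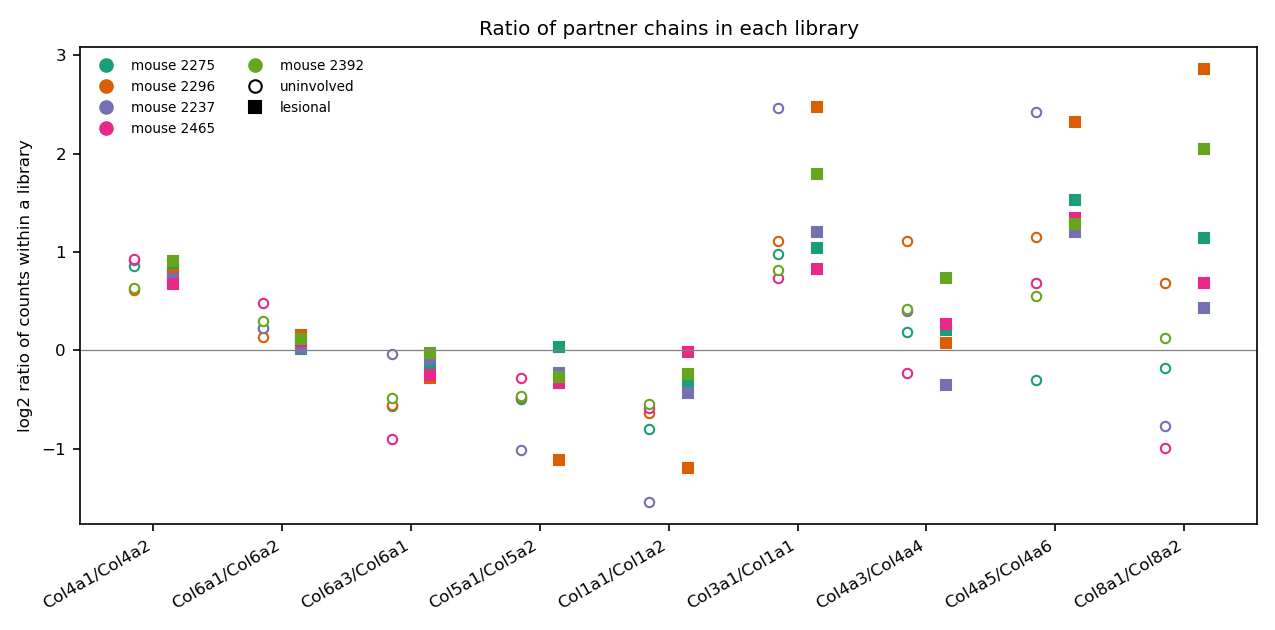
Log2 ratio of the counts of partner chains within each library, with open circles for uninvolved and filled squares for lesional skin, coloured by mouse. Col4a1/Col4a2 and Col6a1/Col6a2 stay within 0.31 and 0.47 over the 10 libraries, and Col8a1/Col8a2 spreads over 3.86 with every lesional value above that of the same mouse's uninvolved skin.

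Col8a2 was the chain of this pair that was lower in every mouse. It had 15.2, 2.02 and 5.78 CPM in uninvolved and 5.17, 0.863 and 5.09 CPM in lesional IL-17C+ skin, and 23.1 and 9.07 against 7.49 and 1.28 CPM under the other label. The difference was small in mouse 2237, and the groups overlapped (log2 difference -1.47 ± 0.37, edgeR adjusted p = 0.112). Col8a1 had 3.25 to 13.4 CPM in uninvolved and 5.28 to 12 CPM in lesional libraries (0.17 ± 0.32).

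Among fibril-associated collagens, Col12a1 stood out by size. Col12a1, whose product links fibrils in tissues under tension, had 31.4, 45.6 and 74.1 CPM in uninvolved and 451, 403 and 181 CPM in lesional IL-17C+ skin, and 36.7 and 41.4 against 1487 and 117 CPM in the mice labelled IL-17C+KO. The skin types did not overlap, and lesional mouse 2465 was more than 3 times higher than the next library. The log2 difference was 3.00 ± 0.65 (edgeR adjusted p = 0.091), and 1.99 without mice 2275 and 2465. Col16a1 had 51.4 to 94.4 CPM in uninvolved and 56.3 to 345 CPM in lesional skin, with mouse 2392 lower in the lesion (0.81 ± 0.34, unadjusted p = 0.0458). Col14a1 had 19.3 to 58.5 CPM and 13.8 to 74.5 CPM, higher in 4 lesions and lower in that of mouse 2296. Col20a1, at 1.03 to 6.11 CPM over all libraries, was higher in the lesion of 4 mice.

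Col22a1, a collagen known from the junction of muscle and tendon, was the other chain lower at an unadjusted p under 0.05. It had 34, 6 and 9 counts in uninvolved and 8, 3 and 14 counts in lesional IL-17C+ skin, and 55 and 30 against 7 and 7 under the other label, and was lower in 4 of 5 mice (log2 difference -1.71 ± 0.50, edgeR adjusted p = 0.131). The summed level of 10 skeletal muscle markers was 32470, 12145 and 6158 CPM in uninvolved and 3634, 2614 and 5812 CPM in lesional IL-17C+ skin, and 43814 and 29713 against 685 and 3941 CPM. All 10 muscle markers had a negative estimate and 9 had an unadjusted p under 0.05, where 11.5% of all genes were lower. Their part in the Col22a1 values was not tested. Col19a1 (0 to 18 counts), Col9a2 (2 to 13) and Col9a3 (5 to 34) had so few counts that no direction is read from them.

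Both multiplexins, basement membrane collagens with cleavable ends, were higher in all 5 lesions. Col15a1 had 38.3, 23.8 and 46.0 CPM in uninvolved and 102, 36.6 and 76.0 CPM in lesional IL-17C+ skin, and 92.3 and 64.7 against 185 and 157 CPM, so that the label IL-17C+KO lay above the other in each skin type. Its log2 difference was 1.01 ± 0.17 (edgeR adjusted p = 0.068). Col18a1, the source of endostatin, had 85.9 to 144 CPM in uninvolved and 171 to 421 CPM in lesional libraries, without overlap (1.15 ± 0.30, adjusted p = 0.116).

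Col7a1 and Col17a1 took separate courses. Col7a1, the anchoring fibril collagen, had 62.0, 63.8 and 17.4 CPM in uninvolved and 211, 101 and 94.9 CPM in lesional IL-17C+ skin, and 56.0 and 64.6 against 453 and 47.0 CPM, lower only in mouse 2392 (1.51 ± 0.52, edgeR adjusted p = 0.162). Col17a1, the hemidesmosome collagen, had 952, 782 and 168 against 413, 270 and 489 CPM, and 770 and 847 against 397 and 386 CPM. It was lower in 4 lesions and higher in that of mouse 2237, whose uninvolved library was the lowest of all 10 (-0.73 ± 0.46, adjusted p = 0.405). Summed basal keratinocyte markers were also lowest in that library (5106 CPM, against 6001 to 13545 CPM in the others). In mice 2275, 2296 and 2465 these markers were higher in the lesion, whereas Col17a1 was lower. They went from 8160 to 8636, from 11772 to 12295 and from 6001 to 13545 CPM. In mice 2237 and 2392 the markers and Col17a1 went the same way. The part of the markers in the Col17a1 values was not tested.

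The remaining transmembrane chains are low. Col13a1 had 0.784 to 2.10 CPM in uninvolved and 2.62 to 11.4 CPM in lesional skin without overlap (1.98 ± 0.42, edgeR adjusted p = 0.090). Col23a1 had 13.1 to 50 CPM and 27.5 to 86.6 CPM (0.15 ± 0.28). Col25a1 had 3 to 8 counts in uninvolved skin and 5 (mouse 2392) to 128 (mouse 2465) in lesional skin. Of the unclassed chains, Col28a1 was higher in all 5 mice, at 1.53 to 6.02 CPM in uninvolved and 3.31 to 10.8 CPM in lesional skin (0.76 ± 0.20, adjusted p = 0.118), and Col26a1 had 2 to 30 counts.

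Mice 2275 and 2465 had the largest collagen differences, and in them hair growth markers were higher in the lesional than in the uninvolved biopsy, while in the other 3 mice they were lower. The summed level of 12 markers of the growing (anagen) hair follicle was 28.8 CPM in uninvolved and 9222 CPM in lesional skin of mouse 2275, and 38.0 and 2549 CPM in mouse 2465. In mice 2296, 2237 and 2392 the sums were 2278 and 1248, 11120 and 8032, and 51.4 and 25.7 CPM. Summed fibroblast markers (8 genes, among them Lum and Dcn, which also stand in a pathway list below) were 1557 to 3135 CPM in uninvolved and 1933 to 5448 CPM in lesional skin, highest in lesional mouse 2465. Without mice 2275 and 2465, an alternative chosen after seeing the data, 16 of 39 tested chains were higher at an unadjusted p under 0.05 (4.68% of all genes) and none was lower (3.11%), none at an adjusted p under 0.05 by edgeR. The median over the chains was 0.81 and that of the fibrillar class 1.28, with 9 of its 10 tested chains above 0. The part of hair growth, muscle content or fibroblast number in the remaining difference was not tested.

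Genes that act on collagen were counted in lists chosen by role, in the same comparison, and none of them passed an adjusted p of 0.05 by edgeR. Of 21 genes for chain folding and modification, 12 were higher at an unadjusted p under 0.05 (10.1% of all genes) and none was lower (11.5% of all genes), with a median of 0.64 against -0.01 over all genes. The smallest p-values belonged to P4ha3, a prolyl hydroxylase subunit (3.02 ± 0.36, adjusted p = 0.0634), the prolyl isomerase Fkbp10 (1.63 ± 0.24), P3h1, a prolyl 3-hydroxylase (1.19 ± 0.26), and P4ha2 (0.64 ± 0.15). Of 12 tested genes for procollagen processing and cross-linking, 7 were higher (10.1% of all genes) and 1 was lower (11.5%), Pcolce2 (-1.18 ± 0.44). The lysyl oxidase relatives Loxl1 (1.18 ± 0.19), Loxl2 (1.72 ± 0.30) and Loxl4 (0.98 ± 0.23) and the procollagen N-proteinase Adamts2 (1.33 ± 0.25) led that list.

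Among 13 fibril-regulating proteoglycans and glycoproteins, 6 were higher (10.1% of all genes) and 1 was lower (11.5%). The leading members were biglycan (Bgn, 1.36 ± 0.24), lumican (Lum, 2.15 ± 0.46) and keratocan (Kera, 3.47 ± 0.85), and osteoglycin (Ogn, -1.14 ± 0.33) was the lower one. Of 10 tested receptors, 3 were higher (10.1% of all genes). They were Mrc2, which takes up collagen fragments (1.20 ± 0.21), and the integrin subunits Itga1 (0.65 ± 0.20) and Itga11 (1.19 ± 0.40). Of 8 tested collagen-cleaving proteases, 7 were higher (10.1% of all genes), with a median of 1.74. The list was led by Mmp9 (1.96 ± 0.29), Mmp8 (3.83 ± 0.61), Mmp1b (4.91 ± 0.89) and Mmp13 (4.62 ± 0.97). These are estimates in the same direction for genes that modify collagen and for genes that cleave it. Mmp8 is also a neutrophil gene, and summed neutrophil markers were 60.0 to 2428 CPM in uninvolved and 2200 to 12377 CPM in lesional libraries.

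Taken by label, the lesional differences had the same sign for the leading chains. In IL-17C+ mice 35 of 42 chains had a positive estimate (48.5% of all genes), 17 were higher at an unadjusted p under 0.05 (3.54% of all genes) and 0 were lower (2.87%), and none passed an adjusted p of 0.05 by edgeR (0% of all genes). In the mice labelled IL-17C+KO 29 had a positive estimate (50.2%), 17 were higher (6.16%), 4 were lower (7.31%) and none passed an adjusted p of 0.05 (0.0124%). DESeq2 called 9 chains in the first (1.54% of all genes) and 16 in the second (7.19%). These counts rest on single mice: without mouse 2275 the IL-17C+ count was 3 (1.78% of all genes), and without mouse 2465 the count for the other label was 4 (2.13%). The 2 groups' estimates stood at 1.57 ± 0.34 and 2.26 ± 0.42 for Col5a3, 1.79 ± 0.63 and 3.19 ± 0.78 for Col3a1, and 0.87 ± 0.33 and 1.28 ± 0.41 for Col4a1 (IL-17C+ first).

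The difference of the lesional differences was tested in the same fit. No chain had an adjusted p under 0.05 by edgeR (0% of all genes) or DESeq2 (0.0373%). The estimate was above 0 for 22 of 42 chains (50% of all genes), 0 chains were higher at an unadjusted p under 0.05 (0.572% of all genes) and 1 was lower, Col2a1 (0.597%). For Col3a1 the difference between labels was 1.40 ± 0.95 (unadjusted p = 0.187), for Col5a3 0.69 ± 0.52 (0.231) and for Col8a2 -1.22 ± 0.65 (0.104). With 2 mice under one label, differences of this size were not separable from the spread between mice, which does not show that the labels act alike.

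In lesional skin the label IL-17C+KO went with higher estimates for most chains, and this depended on mouse 2465. The 5 lesional libraries were compared without a block, over 15691 genes and 38 chains; Col9a1, Col9a2, Col10a1, Col19a1, Col22a1 and Col2a1 did not pass the filter. The estimate was above 0 for 32 chains (50.7% of all genes). At an unadjusted p under 0.05, 6 chains were higher (4.77% of all genes) and 0 were lower (2.53%), with none at an adjusted p under 0.05 by edgeR and 3 by DESeq2 (Col4a1, Col4a2 and Col5a3, 1.36% of all genes). The same number, 6, lay wholly above the IL-17C+ libraries, where 11.8% of all genes did, and none lay below them, where 13.2% did. Without mouse 2465 the median over the chains turned from 0.76 to -0.31, and without mouse 2392 it was 1.28. The median over all genes was -0.03 in both cases.

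Col4a1 and Col4a2 were high in lesional mouse 2392 too. Col4a1 was at 707 and 977 CPM (mice 2465 and 2392) against 424, 214 and 317 CPM, a log2 difference of 1.43 ± 0.34 (edgeR adjusted p = 0.577), and Col4a2 differed by 1.39 ± 0.31 (adjusted p = 0.565). Col5a3 differed by 1.5 ± 0.39 (adjusted p = 0.577) and Col15a1 by 1.29 ± 0.43 (adjusted p = 0.604).

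In uninvolved skin, too, Col4a1, Col4a2 and Col15a1 had higher values under the label IL-17C+KO. Among 38 tested chains (15568 genes; Col9a1, Col10a1, Col2a1, Col25a1, Col26a1 and Col6a4 were too low), 32 had a positive estimate (48.9% of all genes), 6 were higher at an unadjusted p under 0.05 (1.91% of all genes) and 0 were lower (1.82%). They were Col4a2 (1.03 ± 0.31), Col4a1 (1.04 ± 0.32), Col15a1 (1.13 ± 0.37), Col5a1 (0.77), Col6a1 (0.71) and Col14a1 (0.86), each with an edgeR adjusted p of 0.849, and DESeq2 called none (0.0707% of all genes). In 16 chains both libraries of the label IL-17C+KO lay above all 3 IL-17C+ libraries, against 10.5% of all genes, and in none below, against 10.6%. The median over the chains was 0.52, and it was 0.45 without mouse 2465 and 0.58 without mouse 2275. Leaving out mouse 2275 also took the share of all genes at an edgeR adjusted p under 0.05 from 0 to 1.57%. No chain was among them.

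Endothelial markers differed between the labels in the same way. Their summed level (6 genes) was 269, 155 and 75.7 CPM in uninvolved and 251, 184 and 159 CPM in lesional IL-17C+ skin, and under the label IL-17C+KO it was 389 and 330 CPM in uninvolved and 354 and 400 CPM in lesional skin. Both libraries of that label lay above all 3 others in each skin type, as Col4a1, Col4a2 and Col15a1 did. In uninvolved skin, summed fibroblast markers (3135 and 2037 CPM against 1557 to 1994 CPM) and Schwann cell markers (562 and 366 CPM against 113 to 302 CPM) also lay above all 3 IL-17C+ libraries, and in lesional skin both overlapped between the labels. The part of endothelial, fibroblast and Schwann cell content in these values was not tested, and age cannot be told apart from label.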

How the data were processed

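The authors deposited, for each library, a whole-number count and an FPKM value per gene symbol, per the file headers. Reads were handled with cutadapt 1.6, TopHat2 2.0.12, HTSeq and Cufflinks 2.2.1 on mm10, per the submitters' processing notes. For the annotation, strand setting and treatment of shared reads: not given in the sources used here. Overlapping genes, Col4a1 and Col4a2 at their starts among them, are therefore uncertain. Counts were tested in R 4.3.3 with edgeR 4.0.16 (filterByExpr, TMM, robust quasi-likelihood F test, Benjamini-Hochberg adjustment over all genes tested). Each mouse was a block in lesional comparisons, since the labels tie 2 biopsies to a mouse; deviations of same-mouse libraries had correlations of -0.122 to 0.034. Deposited FPKM values were used for levels between genes and, as log2(FPKM + 1) with limma 3.58.1, for 1 alternative; others were DESeq2 1.42.0, limma-voom, RLE scaling, no filter, no block and leaving out mice. In the 10 libraries 3 counts equal 0.0965 to 0.142 CPM. Standard errors of log2 differences were taken as the absolute estimate divided by the square root of edgeR's F statistic. Mice are the replicates. The script was tested on simulated data. Members and gene lists were chosen with earlier results of these data known. The naming rule takes the 4 chains per class with the highest mean CPM, and up to 4 per class or list with the smallest p; scarce ones are given as ranges.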

Additional observations from a re-analysis of the deposited data

Results flagged for a closer look

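The fitted lesional difference of Col2a1 had opposite signs under the genotype labels: that under IL-17C+KO minus that under IL-17C+ was -6.86 ± 1.93 on the log2 scale (unadjusted p = 0.0103, adjusted p = 1 by edgeR's quasi-likelihood test). It rests on few counts, 1, 0 and 2 in uninvolved and 13, 1 and 11 in lesional IL-17C+ skin, and 34 and 1 against 0 and 1 under the other label. Mouse 2392 had 1 count in each biopsy, so the sign under IL-17C+KO rests on mouse 2465. At such counts the size of the estimate is set in part by the prior count.

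In 4 of the 42 chains screened, 1 of the 5 mice lay far from the others in its lesional minus uninvolved log2 CPM (Dixon's ratio above 0.71, which chance passes in about 1 in 20 groups). Mouse 2237 was at 1.54 for Col17a1, where the nearest mouse was at -0.95, and at 1.28 for Col4a6, where the nearest was at -1.16. Mouse 2392 was at -0.86 for Col20a1 (nearest 0.40), and mouse 2296 at 0.10 for Col4a2 (nearest 1.08).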

How the results depend on the processing

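Chains counted as higher or lower have an unadjusted p under 0.05, and called chains an adjusted one. In the 77 results for single chains with an unadjusted p under 0.05, the direction held in every setting in which the chain was tested. These results were picked by p in the same data. Leaving out a mouse of either label also hardly changes the estimates of the other label. The steady direction is therefore no separate support, and other single-chain values were not followed. Over 5 mice, called chains went from 0 to 24 with DESeq2 (12.7% of all genes) and to 16 with no replicate block (5.54%). When a mouse was left out, 0 to 14 were called (14 without mouse 2237, 7.84% of all genes). The count of higher chains was 24, against 10.1% of all genes (19 to 24 without a mouse). The count of lower ones was 2, against 11.5% of all genes. It was 2 to 6 without a mouse, 1 with limma on FPKM, 1 with no replicate block and 0 without mice 2275 and 2465. In IL-17C+ mice, 17 higher chains became 3 to 22 without a mouse and 8 without mice 2275 and 2465, lower ones went from 0 to 1 with no filter or DESeq2 and 0 to 4 without a mouse, and called ones from 0 to 9 with DESeq2. Under the label IL-17C+KO, 17 higher chains became 4 to 19 without a mouse and 4 without mice 2275 and 2465, lower ones went from 4 to 2 with limma on FPKM, no replicate block or without both mice, and 1 to 6 without a mouse, and called ones from 0 to 16 with DESeq2. Between lesional differences, higher chains numbered 0 to 1 and lower ones 0 to 2 without a mouse, and lower ones 0 with limma on FPKM. Between labels in lesional skin, the median over the chains was -0.31 to 1.28 without a mouse, and DESeq2 called 3 chains. In uninvolved skin they numbered 0 to 11 and 0 to 1. When a mouse leaves 1 library under a label, that library is assumed to vary like the others. The cause of these differences was not tested. The mean collagen share was 1.61% in lesional (1.10 to 1.81% without a mouse) and 0.396% in uninvolved libraries (0.380 to 0.408%).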
